A study of Mus musculus with 8 samples.

Results

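Pericentral hepatocyte genes, those that are expressed most strongly in the liver cells around the central vein, were examined in liver RNA of mice with a hepatic FOXO1 knockout and of wildtype controls. The genes were chosen by name as a set of 10 zonation markers (Glul, Cyp2e1, Cyp1a2, Axin2, Lgr5, Rhbg, Slc1a2, Oat, Slc13a3 and Tbx3), and 9 of the 10 had a row among the 25690 genes of the deposited table. Rhbg, an ammonium transporter gene, was not analysed here. There were 4 knockout libraries, numbered 3, 9, 10 and 11 in their titles, and 4 wildtype libraries, numbered 1, 3, 10 and 12. The labels give liver as the tissue and name the 2 genotypes; the sources used here do not give strain, sex, age, feeding state or the promoter that drives the deletion. They do not say whether each library came from an animal of its own, and the p-values measure the spread between libraries, which may be technical.

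Blood crosses a liver lobule from the portal tract to the central vein, and hepatocytes along this path hold different enzymes. Endothelial cells at the central vein release Wnt ligands and R-spondin, which stabilise beta-catenin in the nearest hepatocytes and keep the pericentral programme on. That programme includes glutamine synthesis, which captures ammonia that escaped the periportal urea cycle, and cytochrome P450 enzymes that oxidise drugs. FOXO1 is a forkhead transcription factor that insulin signalling inactivates in hepatocytes.

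Levels are given as FPKM, fragments per kilobase of transcript, scaled to the library's mapped fragments, as the authors deposited them. The targeted gene Foxo1 lay between 0.212 and 0.375 FPKM in the knockout libraries and between 3.01 and 3.81 FPKM in the wildtype libraries. The FPKM value of 1 fragment implied between 26.8 M and 34.9 M fragments per library, an estimate. Apoa1, an apolipoprotein gene that marks hepatocytes, was at 7917 to 10986 FPKM in knockout and 8672 to 10918 FPKM in wildtype livers, and Alb was listed at 0 in knockout 10 alone. The 9 hepatocyte markers with a row, Alb among them, summed to 43365 to 74852 FPKM in knockout and 68595 to 78388 FPKM in wildtype livers. The sum was lowest in knockout 10, where it lacks Alb, which was at 23103, 20877 and 27358 FPKM in knockouts 3, 9 and 11. The low sum of knockout 10 is thus no measure of its hepatocyte RNA. In the test described below 0 of these 9 were called higher and 2 lower, against 2.70% and 11.7% of all tested genes. Knockouts 3 and 11 stood apart. In them the median of 31 tested genes of acute phase proteins, which the liver releases in inflammation, was 2.14 and 1.75 above the wildtype mean on the log2(FPKM + 1) scale, against 0.13 and 0.16 in knockouts 9 and 10 and between -0.07 and 0.09 in the wildtype libraries. For Saa1, a leading acute phase gene, the 4 knockout libraries in the order 3, 9, 10 and 11 had 28413, 573, 266 and 33012 FPKM, against 78.3 to 195 FPKM in wildtype livers. Knockouts 3 and 11 also held more of the neutrophil transcripts S100a8 (31.4 and 77.2 FPKM) and S100a9 (24.3 and 57.5 FPKM), which reached at most 2.63 FPKM in knockouts 9 and 10 and 3.19 FPKM in wildtype livers. For each pericentral gene the value without knockouts 3 and 11 is given as well. In that fit Saa1 was still called higher (log2 change 1.81, limma adjusted p = 0.0417). There 1 acute phase gene was called lower, against 6.40% of all tested genes. Leaving out knockouts 3 and 11 therefore does not free the comparison of acute phase differences.

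In knockout liver the pericentral genes did not move as a block. Glul, Cyp1a2 and Slc13a3 rose and Cyp2e1 fell, while Axin2, Tbx3, Slc1a2 and Oat did not pass the test. The test was limma on log2(FPKM + 1) over the 10250 genes with a mean of 1 FPKM or more, and a gene was called at a Benjamini-Hochberg adjusted p under 0.05. Of the 8 pericentral genes tested 3 were called higher and 1 lower. Among all tested genes 2.70% were called higher and 11.7% lower, 277 and 1195 genes, so that 14.4% were called in all. The median log2 change was -0.16 over the 8 genes and -0.08 over all tested genes. Lgr5, with a mean of 0.749 FPKM, fell below the minimum and was examined on its own. The balance of calls over all genes depended on scaling: 18.8% of the called genes were higher as deposited, 40.2% with median-ratio scaling (485 higher and 720 lower) and 46.9% with the trend along transcript length removed (516 and 585). Without knockouts 3 and 11, 2 of the 8 pericentral genes were called higher and 0 lower, against 1.94% and 6.40% of all tested genes (8.34% in all). By limma 0 of the 8 were called lower in that fit and with either adjustment, and 1, Cyp2e1, had an unadjusted p under 0.05 in each of the 3 fits. Of the 8 tested genes, 3 were higher in every knockout library than in any wildtype library and 1 was lower, against 4.83% and 16.5% of all tested genes (21.3% in all). Lgr5, which is not among the tested genes behind these shares, was also higher in every knockout library.

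**Figure D1:**
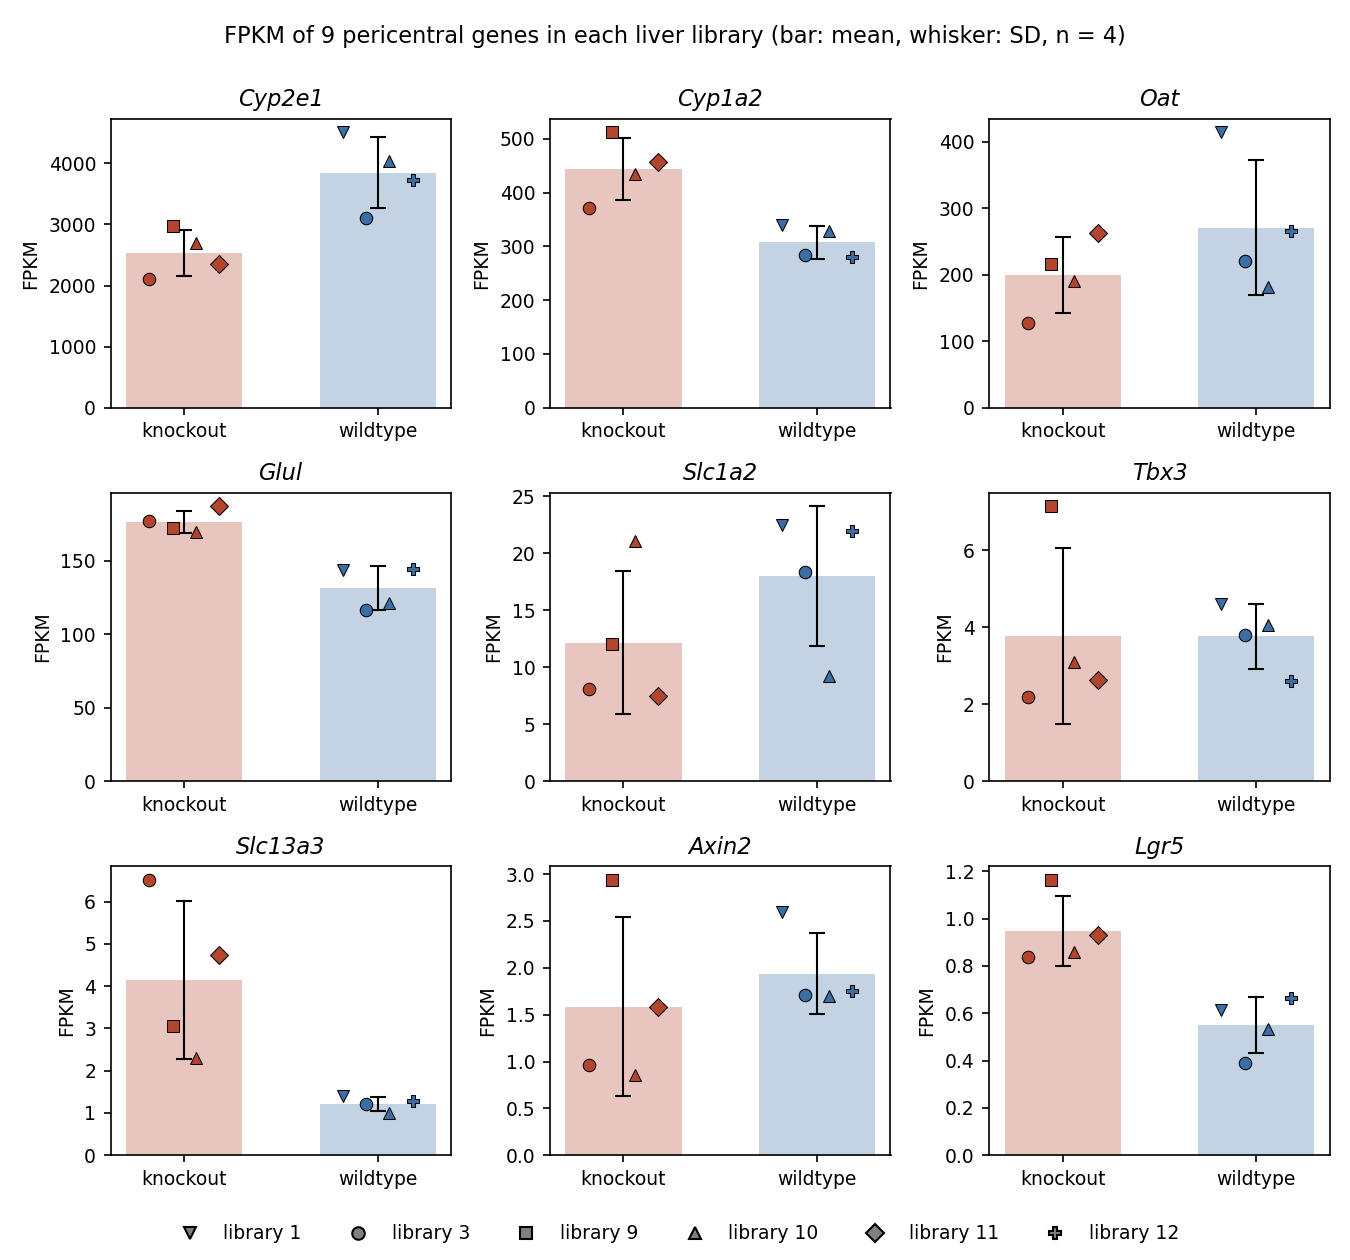
FPKM (vertical axes, linear, from 0) of the 9 pericentral genes in 4 knockout and 4 wildtype liver libraries; bars are means, whiskers SD, and each symbol is 1 library. The groups do not overlap for Cyp2e1 (lower in knockout) or for Cyp1a2, Glul, Slc13a3 and Lgr5 (higher in knockout), and they overlap for Oat, Slc1a2, Tbx3 and Axin2.

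Levels spanned a wide range, and FPKM is scaled to transcript length, so that genes can be ranked. In knockout liver the order by mean was Cyp2e1, Cyp1a2, Oat, Glul, Slc1a2, Slc13a3, Tbx3, Axin2 and Lgr5, and in wildtype liver Cyp2e1, Cyp1a2, Oat, Glul, Slc1a2, Tbx3, Axin2, Slc13a3 and Lgr5. Slc13a3 was thus above Tbx3 and Axin2 by mean in knockout liver, and below both in wildtype liver. In knockout liver the ranges of Oat and Glul overlapped, as did those of Slc13a3, Tbx3 and Axin2 and those of Axin2 and Lgr5. In wildtype liver those of Cyp1a2 and Oat overlapped.

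The glutamine and glutamate genes gave 1 call. Glul encodes glutamine synthetase, which joins ammonia to glutamate and is confined to the last hepatocytes before the central vein. It lies on chromosome 1 (ENSMUSG00000026473, 153899944 to 153909723, mm10, plus strand, protein-coding, 7 exons in the longest transcript). Its level was 177, 172, 169.9 and 187 FPKM in knockouts 3, 9, 10 and 11, against 144, 117, 121 and 145 FPKM in wildtypes 1, 3, 10 and 12. Each knockout library was above each wildtype library, and the knockout libraries lay closer together than those of any other pericentral gene, with an SD of 4.34% of the mean against 11.3% in wildtype. The mean was 177 ± 7.66 FPKM in knockout and 132 ± 14.8 FPKM in wildtype liver (SD, n = 4 each), 1.34 times as high. Glul rose by 0.43 on the log2 scale (SE 0.10, 95% interval 0.20 to 0.65, limma adjusted p = 0.0218). Without knockouts 3 and 11 the log2 change was 0.38 and did not pass with the 2 remaining knockout libraries (limma adjusted p = 0.0943). The call was also lost when wildtype 3 (limma adjusted p = 0.0576) or wildtype 10 (0.0698) was left out.

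Slc1a2 encodes a glutamate transporter of the plasma membrane, which is best known from astrocytes and which pericentral hepatocytes share. It lies on chromosome 2 (ENSMUSG00000005089, 102658659 to 102790784, mm10, plus strand, protein-coding, 11 exons). It was at 8.09, 12.1, 21.05 and 7.496 FPKM in knockouts 3, 9, 10 and 11, against 22.5, 18.3, 9.28 and 21.96 FPKM in wildtypes 1, 3, 10 and 12. Knockout 10 was close to the 2 highest wildtype libraries and wildtype 10 below 2 knockout libraries, so the groups overlapped. The mean was 12.2 ± 6.25 FPKM in knockout and 18.01 ± 6.11 FPKM in wildtype liver (SD, n = 4 each), and the log2 change of -0.57 (95% interval -1.34 to 0.20) did not pass (limma adjusted p = 0.304). The lowest levels were in knockouts 3 and 11, the libraries with high acute phase transcripts, and with both left out the log2 change was -0.09 (limma adjusted p = 0.900). With knockout 10 left out it was -0.85 (limma adjusted p = 0.0892). The part of the acute phase state in this difference was not tested.

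Oat encodes ornithine aminotransferase, a mitochondrial enzyme that turns ornithine into glutamate semialdehyde and so feeds glutamate to glutamine synthetase. It lies on chromosome 7 (ENSMUSG00000030934, 132557478 to 132576398, mm10, minus strand, protein-coding, 10 exons). Oat was at 127, 216, 191 and 263 FPKM in knockouts 3, 9, 10 and 11, against 414, 221, 182 and 265 FPKM in wildtypes 1, 3, 10 and 12. Knockout 3 was the lowest and wildtype 1 the highest library, and the other 6 shared 1 range. With means of 199 ± 56.7 FPKM in knockout and 271 ± 102 FPKM in wildtype liver (SD, n = 4 each), the log2 change of -0.42 (95% interval -1.04 to 0.20) did not pass (limma adjusted p = 0.350). It was -0.19 with wildtype 1 left out, -0.22 with knockout 3 left out and -0.34 with knockouts 3 and 11 left out, and passed in none of these fits. Over the 17 tested genes of glutamine, glutamate and ammonium handling, which include these 3, 1 was called higher, Glul, and 1 lower, Prodh2, a hydroxyproline dehydrogenase gene (log2 change -0.46, limma adjusted p = 0.0119). Among all tested genes 2.70% were called higher and 11.7% lower. Prodh2 did not pass with median-ratio scaling (limma adjusted p = 0.0504) or quantile normalization (0.0715). The list median was -0.11. Without knockouts 3 and 11 Glul did not pass and 2 genes of the list were called lower, against 6.40% of all tested genes. Gls2, the liver glutaminase gene of periportal hepatocytes, which releases the ammonia of glutamine, had 117, 107, 155 and 166 FPKM in the knockout libraries 3, 9, 10 and 11, against 151, 161, 176 and 190.0 FPKM in wildtypes 1, 3, 10 and 12, and did not pass (log2 change -0.33, limma adjusted p = 0.175).

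Slc13a3 showed the largest fold of the pericentral genes. It encodes a sodium-dependent dicarboxylate transporter that takes up succinate and related acids, and lies on chromosome 2 (ENSMUSG00000018459, 165405028 to 165473230, mm10, minus strand, protein-coding, 13 exons). Its level was 6.51, 3.06, 2.31 and 4.74 FPKM in knockouts 3, 9, 10 and 11, against 1.39, 1.20, 0.998 and 1.29 FPKM in wildtypes 1, 3, 10 and 12. Every knockout library was above every wildtype library, and the wildtype libraries were close together while the knockout libraries differed up to 2.82-fold. The mean was 4.15 ± 1.87 FPKM in knockout and 1.22 ± 0.167 FPKM in wildtype liver (SD, n = 4 each), 3.40 times as high. Slc13a3 rose by 1.15 on the log2 scale (SE 0.23, 95% interval 0.64 to 1.65, limma adjusted p = 0.0117), which understates the fold of a gene at this level. The highest values were in knockouts 3 and 11, where acute phase transcripts were high. Without them Slc13a3 still rose, by 0.72 (95% interval 0.43 to 1.02, limma adjusted p = 0.0218). The call held in all 20 alternatives in which the gene was fitted (limma adjusted p up to 0.0363).

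Of the relatives of Slc13a3, Slc13a2, another dicarboxylate transporter gene, fell to 0.890 ± 0.341 FPKM in knockout liver against 1.68 ± 0.0862 FPKM in wildtype liver (SD, n = 4 each; log2 change -0.52, limma adjusted p = 0.0236). It did not pass with median-ratio scaling (limma adjusted p = 0.0592), quantile normalization (0.0541), the length trend removed (0.0801) or after leaving out any 1 of wildtypes 1, 10 and 12 and knockout 3 (up to 0.0667). Slc13a2 reached the minimum level only through its wildtype values, its knockout mean being under 1 FPKM. Slc13a5, a citrate transporter gene below the minimum level, was at 2.73, 0.447, 0.466 and 1.75 FPKM in knockouts 3, 9, 10 and 11, against 0.235, 0.0785, 0.264 and 0.183 FPKM in wildtypes 1, 3, 10 and 12. It was picked out after its values were seen and was not tested. Its groups did not overlap and, as for Slc13a3, its 2 highest values were in knockouts 3 and 11. Slc13a4, another relative below the minimum level, was likewise picked out after its values were seen and not tested. It was at 0.543, 0.556, 0.358 and 0.375 FPKM in knockouts 3, 9, 10 and 11, against 0.293, 0.277, 0.254 and 0.176 FPKM in wildtypes 1, 3, 10 and 12. Its groups did not overlap either, but its 2 highest values were in knockouts 3 and 9.

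The 2 cytochrome P450 genes moved in opposite directions. Cyp2e1 encodes the P450 that oxidises ethanol, acetone and paracetamol, and Cyp1a2 one that oxidises caffeine and aromatic amines and is induced through the aryl hydrocarbon receptor. The stretches before their annotated starts are shown because both hold the same TCF/LEF word, the letters that beta-catenin's DNA-binding partners recognise, while their levels differed in opposite directions between the genotypes. Glul, which rose, is shown beside them and holds none. The sequences are from RefSeq (GRCm38.p6), 5′ to 3′ on the strand of each gene, and end just before the earlier of the RefSeq and GENCODE starts. Capitals mark CTTTGAA, or TTCAAAG where it lies on the other strand.
Cyp2e1, chr7:140763569-140763738, plus strand: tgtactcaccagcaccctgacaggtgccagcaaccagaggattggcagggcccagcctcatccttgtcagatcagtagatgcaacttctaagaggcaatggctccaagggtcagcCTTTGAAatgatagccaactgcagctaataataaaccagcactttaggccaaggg
Cyp1a2, chr9:57683704-57683905, minus strand: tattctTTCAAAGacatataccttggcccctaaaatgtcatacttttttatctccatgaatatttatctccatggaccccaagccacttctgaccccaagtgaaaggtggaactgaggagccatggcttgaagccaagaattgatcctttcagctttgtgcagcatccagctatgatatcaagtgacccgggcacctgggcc
Glul, chr1:153899679-153899928, plus strand: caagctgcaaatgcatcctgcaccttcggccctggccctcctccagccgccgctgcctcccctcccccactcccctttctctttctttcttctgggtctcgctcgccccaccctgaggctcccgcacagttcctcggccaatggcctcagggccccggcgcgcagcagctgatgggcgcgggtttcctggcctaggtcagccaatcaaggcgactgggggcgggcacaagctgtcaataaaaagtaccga
Windows of 250 bases before a RefSeq start were found for 7 of the 10 genes (Glul, Slc1a2, Slc13a3, Oat, Cyp2e1, Cyp1a2 and Axin2). The TCF/LEF words were CTTTGAA and its variants with other last letters, namely CTTTGAT, then CTTTGTA, and lastly CTTTGTT, searched on both strands, and 3 of the 7 windows held 1, against 14.8% of 32851 windows of the same length. These were Cyp2e1, Cyp1a2 and Slc1a2. CTTTGAA by itself, the word marked in Cyp2e1 and Cyp1a2, was in 4.46% of all windows. Whether it acts on either gene was not tested. The forkhead words, namely GTAAACA, with it GTCAACA, further GCAAACA, and lastly CAAAACA, were in 1 of the 7 windows, that of Slc1a2, against 14.1% of all windows. The Slc1a2 window has 0 bases before the GENCODE start of the gene, so its matches lie inside the annotated gene. A match describes letters in these windows.

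Cyp2e1 was the most abundant pericentral transcript. It lies on chromosome 7 (ENSMUSG00000025479, 140763739 to 140774987, mm10, plus strand, protein-coding, 9 exons). It was at 2106, 2973, 2704 and 2347 FPKM in knockouts 3, 9, 10 and 11, against 4506, 3109, 4040.5 and 3735 FPKM in wildtypes 1, 3, 10 and 12. The groups did not overlap, but the highest knockout library, 9, was close to the lowest wildtype library, 3. The mean was 2533 ± 383 FPKM in knockout and 3848 ± 586 FPKM in wildtype liver (SD, n = 4 each), 0.658 times as high. Cyp2e1 fell by 0.60 on the log2 scale (SE 0.16, 95% interval -0.95 to -0.25, limma adjusted p = 0.0318). Its lowest values were those of knockouts 3 and 11, and leaving both out gave a log2 change of -0.43 (95% interval -0.79 to -0.07), which did not pass after adjustment (limma adjusted p = 0.134). Nor did it pass with median-ratio scaling (-0.49, limma adjusted p = 0.0518), quantile normalization (-0.79, 0.0546), the length trend removed (-0.46, 0.0677), no minimum level (-0.60, 0.0888), or after leaving out any 1 of wildtypes 1, 10 and 12 and knockouts 3 and 11 (-0.61 to -0.52, up to 0.0988).

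Cyp1a2 rose where Cyp2e1 fell. It lies on chromosome 9 (ENSMUSG00000032310, 57676937 to 57683703, mm10, minus strand, protein-coding, 7 exons). Its level was 372, 512, 435 and 457 FPKM in knockouts 3, 9, 10 and 11, against 339, 283, 329 and 280.3 FPKM in wildtypes 1, 3, 10 and 12. Each knockout library was above each wildtype library, with knockout 3 nearest to wildtype 1. The mean was 444 ± 57.9 FPKM in knockout and 308 ± 30.5 FPKM in wildtype liver (SD, n = 4 each), 1.44 times as high. Cyp1a2 rose by 0.52 on the log2 scale (SE 0.12, 95% interval 0.25 to 0.80, limma adjusted p = 0.0214). Its highest value was that of knockout 9, and leaving out knockouts 3 and 11 gave a log2 change of 0.62 (limma adjusted p = 0.0294). The call was lost when wildtype 3 (0.48, limma adjusted p = 0.0599) or wildtype 12 (0.48, 0.0607) was left out.

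Cyp1a1, the neighbouring and similar gene that the same receptor induces, rose as well, to 3.79 ± 0.309 FPKM in knockout liver against 2.26 ± 0.249 FPKM in wildtype liver (SD, n = 4 each; log2 change 0.56, limma adjusted p = 0.00652), and this call held under every alternative fitted. Its level was 0.803% to 0.912% of that of Cyp1a2 in knockout and 0.696% to 0.765% in wildtype libraries. The 2 genes can share reads, so how much of the low Cyp1a1 level belongs to Cyp1a2 is uncertain.

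**Figure D2:**
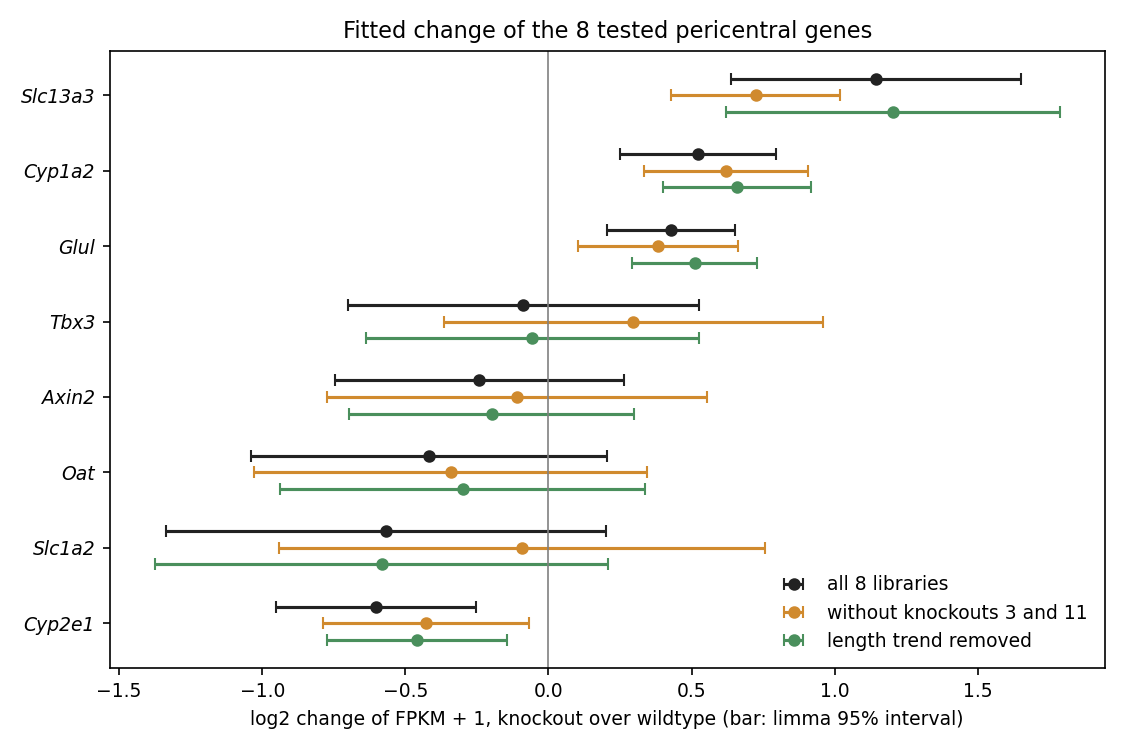
Fitted log2 change of FPKM + 1, knockout over wildtype (horizontal axis), of the 8 tested pericentral genes, with limma 95% intervals, for all 8 libraries, without knockouts 3 and 11, and with the trend along transcript length removed. Slc13a3, Cyp1a2 and Glul lie above 0 and Cyp2e1 below 0 in each fit, while the intervals of Tbx3, Axin2, Oat and Slc1a2 include 0.

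Ratios of FPKM + 1 within a library hardly change when a whole library is scaled by 1 factor. Of 4 pairs compared, 2 set a pericentral gene against a periportal gene of the same kind, and 2 set pericentral genes against each other. The log2 ratio of Glul to Gls2 was 0.60, 0.68, 0.13 and 0.17 in knockouts 3, 9, 10 and 11, against -0.07, -0.47, -0.53 and -0.39 in wildtypes 1, 3, 10 and 12. Glutamine synthetase RNA was thus above glutaminase RNA in each knockout library and below it in each wildtype library, with a difference of 0.76 in the mean log2 ratio. For Cyp2e1 over Cyp2f2, a P450 gene of periportal hepatocytes, the mean log2 ratio was 2.09 ± 0.18 in knockout and 3.04 ± 0.27 in wildtype libraries (SD, n = 4 each), a difference of -0.95. Cyp2f2 itself was at 593 ± 93.3 FPKM in knockout and 464 ± 25.4 FPKM in wildtype liver (SD, n = 4 each) and did not pass (log2 change 0.34, limma adjusted p = 0.0985), although it did without knockouts 3 and 11 (0.48, limma adjusted p = 0.0415), with median-ratio scaling (0.45, 0.0389) and with the length trend removed (0.48, 0.0264).

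Between pericentral genes, the mean log2 ratio of Cyp2e1 to Cyp1a2 was 2.51 ± 0.11 in knockout and 3.63 ± 0.13 in wildtype libraries (SD, n = 4 each). Cyp2e1 was therefore 5.68 times as high as Cyp1a2 in knockout and 12.4 times as high in wildtype liver, as geometric means of the ratio of FPKM + 1. The log2 ratio of Glul to Oat averaged -0.13 ± 0.42 in knockout and -0.97 ± 0.39 in wildtype libraries (SD, n = 4 each), a difference of 0.84. Since Cyp2e1 was lower and Cyp1a2 higher in every knockout library than in any wildtype library, the groups cannot overlap for the ratio of these 2, which is given as a description. Nor did they overlap for the other 3 ratios, for each of which the exact two-sided permutation test gave p = 0.0286, the smallest that 4 against 4 libraries allow, and the same after adjustment. In each of these 3, Glul or Cyp2e1 alone already separated the groups, and the pairs were chosen with earlier results of these data known. Their p-values therefore give no support beyond the levels of Glul and Cyp2e1 themselves. Without knockouts 3 and 11 the differences were 0.77 for Glul over Gls2, -0.91 for Cyp2e1 over Cyp2f2, 0.72 for Glul over Oat and -1.05 for Cyp2e1 over Cyp1a2.

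**Figure D3:**
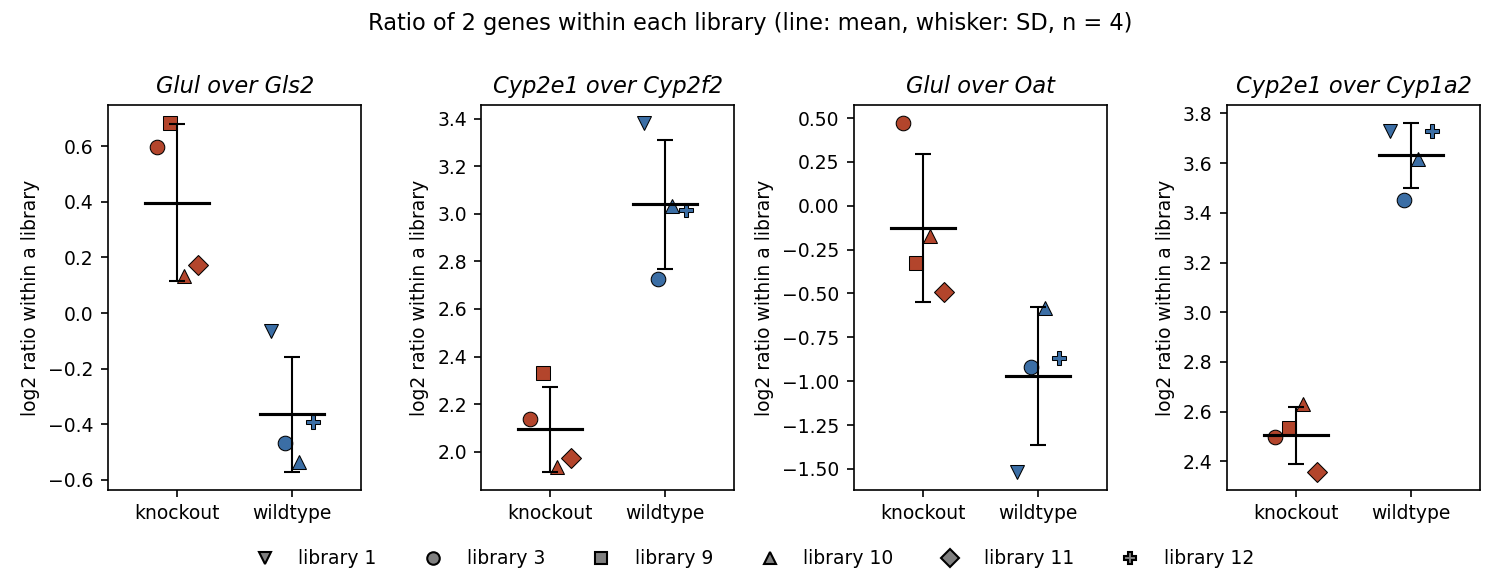
Log2 ratio of FPKM + 1 of 2 genes within each library (vertical axes, log2 scale) for 4 pairs in knockout and wildtype livers; each symbol is 1 library, lines are means and whiskers SD. The Cyp2e1 to Cyp1a2 ratio is at most 2.63 in knockout libraries and at least 3.45 in wildtype libraries, and the groups do not overlap in the other 3 panels either.

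The 3 genes that read out or relay Wnt signalling shared no pattern: the groups did not overlap for Lgr5, and they overlapped for Axin2 and Tbx3. Lgr5 encodes a receptor for R-spondins and is a beta-catenin target in the hepatocytes next to the central vein. It lies on chromosome 10 (ENSMUSG00000020140, 115450311 to 115587780, mm10, minus strand, protein-coding, 11 exons). Lgr5 was at 0.838, 1.16, 0.860 and 0.931 FPKM in knockouts 3, 9, 10 and 11, against 0.614, 0.390, 0.535 and 0.664 FPKM in wildtypes 1, 3, 10 and 12. Every knockout library was above every wildtype library, with means of 0.948 ± 0.148 FPKM in knockout and 0.551 ± 0.120 FPKM in wildtype liver (SD, n = 4 each), 1.72 times as high. The exact two-sided permutation test over libraries gave p = 0.0286, the smallest that 4 against 4 allow, with no adjustment. The difference of 0.397 FPKM in the means was 0.460 FPKM with knockouts 3 and 11 left out. Fitted with all genes above 0, Lgr5 did not pass (log2 change 0.33, limma adjusted p = 0.0510). From its transcript length, its level corresponds to about 50.2 to 168 fragments per library.

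Axin2, the scaffold protein gene that is a general feedback target of Wnt signalling, lies on chromosome 11 (ENSMUSG00000000142, 108920349 to 108950783, mm10, plus strand, protein-coding, 11 exons). It was at 0.966, 2.94, 0.857 and 1.58 FPKM in knockouts 3, 9, 10 and 11, against 2.59, 1.71, 1.69 and 1.75 FPKM in wildtypes 1, 3, 10 and 12. Knockout 9 was the highest of the 8 libraries and the other 3 knockout libraries were the lowest. The means were 1.58 ± 0.956 FPKM in knockout and 1.94 ± 0.437 FPKM in wildtype liver (SD, n = 4 each), and the log2 change of -0.24 (95% interval -0.75 to 0.26) did not pass (limma adjusted p = 0.519). The size depended on single libraries. Leaving out knockout 9 gave -0.47 (limma adjusted p = 0.0696), whereas leaving out knockout 10 gave -0.10, knockout 3 -0.13 and wildtype 1 -0.14. With knockouts 3 and 11 left out it was -0.11 (limma adjusted p = 0.842), and none of these fits passed.

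Tbx3, a T-box transcription factor gene and another beta-catenin target of pericentral hepatocytes, lies on chromosome 5 (ENSMUSG00000018604, 119670669 to 119684724, mm10, plus strand, protein-coding, 7 exons). It was at 2.18, 7.14, 3.10 and 2.63 FPKM in knockouts 3, 9, 10 and 11, against 4.59, 3.79, 4.07 and 2.62 FPKM in wildtypes 1, 3, 10 and 12. As for Axin2, knockout 9 was the highest of the 8 libraries, and the other knockout libraries were at or below most wildtype libraries. The means were 3.76 ± 2.28 FPKM in knockout and 3.77 ± 0.837 FPKM in wildtype liver (SD, n = 4 each), and the log2 change was -0.09 (95% interval -0.70 to 0.53, limma adjusted p = 0.864). Its direction turned without knockout 3 (0.072), without knockout 11 (0.0085) and without both (0.30), none of which passed, and leaving out knockout 9 gave -0.38 (limma adjusted p = 0.134).

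Among the 9 genes, knockout 9 was the highest knockout library for 5 (Cyp2e1, Cyp1a2, Axin2, Lgr5 and Tbx3) and the lowest for 0. Knockout 3 was the lowest knockout library for 5 (Cyp2e1, Cyp1a2, Lgr5, Oat and Tbx3) and the highest only for Slc13a3. Wildtype 1 was the highest wildtype library for 7 of the 9. The spread within knockout liver was widest for Tbx3 and Axin2, with SDs of 60.6% and 60.3% of the mean, and narrowest for Glul.

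**Figure D4:**
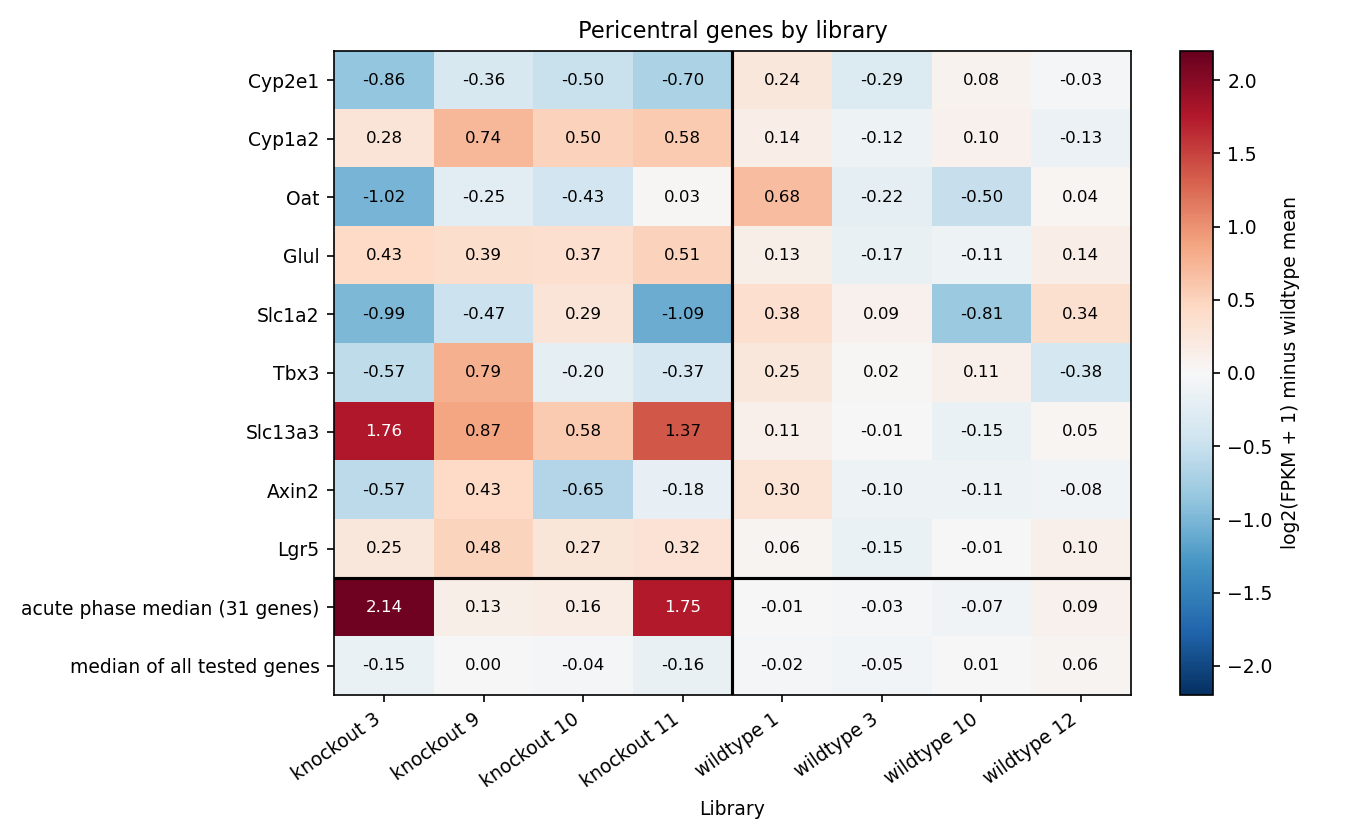
Each cell is log2(FPKM + 1) of 1 gene in 1 library minus the mean of the 4 wildtype libraries (colour bar; columns are libraries), for the 9 pericentral genes from the highest to the lowest mean FPKM, the median of 31 acute phase genes and the median of all tested genes. Glul lies between 0.37 and 0.51 in the 4 knockout libraries, whereas Slc13a3 reaches 1.76 and 1.37 in knockouts 3 and 11, the libraries in which the acute phase median is 2.14 and 1.75.

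Genes that act around these members were taken from lists. In the Wnt and beta-catenin list 30 of 49 genes reached the minimum level, with a median log2 change of 0.12. Of these, 5 were called higher and 1 lower, against 2.70% and 11.7% of all tested genes. The higher ones were Ccnd1, the cyclin D1 gene, at 5.37 ± 1.65 FPKM in knockout and 0.952 ± 0.208 FPKM in wildtype liver (SD, n = 4 each; log2 change 1.67, limma adjusted p = 0.00231), Lrp5, a Wnt co-receptor gene (0.77, 0.00305), Tle3, a corepressor gene (0.92, 0.0144), and Tcf7, a TCF/LEF factor gene (0.52, 0.0156). Myc was the fifth (1.44, limma adjusted p = 0.0346), named after its values were seen, and its call was lost under 10 of 20 alternatives, among them leaving out any 1 wildtype library, knockout 3 or knockout 10 (limma adjusted p up to 0.0877). Ccnd1, Tcf7 and Myc had wildtype means of 0.952, 0.970 and 0.624 FPKM, so they reached the minimum level only through their knockout values. With a minimum of 5 FPKM, 1 gene of the list was called higher and 0 lower. Pygo2, a beta-catenin cofactor gene, fell (-0.51, limma adjusted p = 0.0439). Without knockouts 3 and 11, 4 genes of the list were called higher, against 1.94% of all tested genes. Tcf7 (limma adjusted p = 0.0838), Myc (0.101) and Pygo2 (0.217) did not pass in that fit. Pygo2 was lost under 9 of 20 alternatives in all. Ctnnb1, the beta-catenin gene (0.19, limma adjusted p = 0.254), Lgr4, the R-spondin receptor gene related to Lgr5 (0.13, 0.561), Rnf43 (-0.40, 0.218) and Notum (0.15, 0.412), both feedback inhibitors of the pathway, did not pass and were picked out after their values were seen.

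The ligands came from few transcripts. Rspo3, the R-spondin gene of central vein endothelium, was at 0.596, 1.28, 0.903 and 0.853 FPKM in knockouts 3, 9, 10 and 11, against 1.17, 1.33, 1.15 and 1.31 FPKM in wildtypes 1, 3, 10 and 12. Of the knockout libraries, 9 alone lay within the wildtype range, and the difference did not pass (log2 change -0.24, limma adjusted p = 0.184) unless knockout 9 was left out (-0.33, limma adjusted p = 0.0479), and was -0.11 with knockouts 3 and 11 left out. Wnt2 was at 0.148, 0.208, 0.483 and 0.206 FPKM in knockouts 3, 9, 10 and 11, against 0.504, 0.468, 0.313 and 0.534 FPKM in wildtypes 1, 3, 10 and 12 (exact two-sided permutation p = 0.0857). Wnt9b was at most 0.103 FPKM in knockout and 0.120 FPKM in wildtype livers (exact two-sided permutation p = 0.914). The summed level of 10 sinusoidal endothelial markers was 48.9 to 81.4 FPKM in knockout and 82.4 to 104 FPKM in wildtype livers. Of 9 tested ones 3 were called lower and 0 higher, against 11.7% and 2.70% of all tested genes. The 9 central vein endothelial markers summed to 7.80 to 17.9 FPKM in knockout and 12.2 to 17.4 FPKM in wildtype livers, and 0 of these lists' markers were at 0 throughout. In whole liver, fewer cells of a type and less RNA per cell cannot be told apart, and the part of endothelial RNA in the values of the pericentral genes was not tested.

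Of 25 other genes with higher expression in pericentral hepatocytes 1 was called higher and 4 lower, and of 25 periportal genes also 1 higher and 4 lower, with median log2 changes of -0.19 and -0.16. Among all tested genes 2.70% were called higher and 11.7% lower, with a median log2 change of -0.08. The pericentral list had Cyp1a1 on the higher side, and on the lower side Cyp2a5, a coumarin hydroxylase gene (-1.64, limma adjusted p = 0.0109), Nr1i3, the gene of the nuclear receptor CAR (-0.86, 0.00823), Rgn (-0.55, 0.0140) and Cyp2c29 (-0.71, 0.0462). Cyp2a5 and Cyp2c29 have close relatives with which they can share reads. Cyp2c29 was lost under 13 of 21 alternatives, and without knockouts 3 and 11 neither Cyp2c29 (limma adjusted p = 0.207) nor Rgn (0.0576) passed. The periportal list had Cdh1, the E-cadherin gene, on the higher side (0.76, limma adjusted p = 0.00780) and Hsd17b6 (-1.36, 0.00681), Hsd17b13 (-0.51, 0.0234), Ftcd (-0.32, 0.0339) and Hal, the histidase gene (-0.40, 0.0482), on the lower. Hsd17b13, Ftcd and Hal did not pass with median-ratio scaling (limma adjusted p from 0.0900 to 0.196), which left 1 periportal gene lower and 2 higher. Without knockouts 3 and 11 the periportal counts were 2 higher and 4 lower, against 1.94% and 6.40% of all tested genes. Hsd17b13, Ftcd and Hal did not pass there either (limma adjusted p from 0.0612 to 0.0851). With 1 library left out 1 to 4 periportal genes were lower, the count being 1 without wildtype 1, wildtype 10 or knockout 3 and 2 without wildtype 3 or knockout 9. In the same way 2 to 6 of the other pericentral genes were lower, 2 without wildtype 1 and 6 without knockout 10.

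Profiles over the 8 libraries were compared by the Euclidean distance between mean-centred log2(FPKM + 1) values. The 3 tested genes nearest to Glul were Tmem102, Tdrp and Tmem131, at distances of 0.168, 0.229 and 0.237, and those nearest to Cyp2e1 were Mfsd4b1, Kin and Pla2g12a, at 0.208, 0.238 and 0.245. Tmem102, for instance, was at 3.99 to 4.50 FPKM in knockout and 2.72 to 3.24 FPKM in wildtype livers. These nearest genes are outside the pericentral lists. Those lists hold 8 and 25 of the 10250 tested genes, so nearest profiles would be likely to fall outside them in any case.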

How the data were processed

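Liver RNA of 4 knockout and 4 wildtype libraries was sequenced from total RNA prepared with standard Illumina libraries, per the labels' protocols. The build mm10 and the tools Cufflinks 2.2.1, TopHat2 2.1.0 and HTSeq are named in the submitters' processing notes, with no role or order; the sources used here give no annotation and no strand setting, so reads of a gene and of an overlapping or antisense gene may be mixed. The authors deposited FPKM for 25690 genes, a unit read from the values and tools. Names came from a table that matched 24807 IDs, and coordinates and lengths from GENCODE mouse release M21.

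Genes with a mean FPKM of at least 1 (10250) were fitted as log2(FPKM + 1) with limma 3.58.1 in R 4.3.3, genotype as the single term, a mean-variance trend and two-sided p-values adjusted over all tested genes by Benjamini-Hochberg. An exact 0 was taken as a value. Single values were compared by exact permutation over libraries (SciPy 1.17.1). Lists are described by counts and medians. Depth was estimated from genes with 1 transcript over 1500 bases. Each value above 0 was read as 1 fragment, and the median of the implied depths between 22 M and 40 M was taken. The estimate is thus bounded by that preset window. Intervals cover the spread between libraries. The fit was tested on simulated data. The pericentral genes, lists, pairs and alternatives were chosen with earlier results of these data known. The genes named are the pericentral genes, up to 4 called genes per list and direction, Foxo1, Gls2, Cyp2f2, Rspo3, Wnt2, Wnt9b, Saa1, S100a8 and S100a9, and the 3 nearest profiles of Glul and Cyp2e1. Alb, Apoa1, Slc13a4, Slc13a5, Myc, Ctnnb1, Lgr4, Rnf43 and Notum were added after their values were seen. In the acute phase list of 31 tested genes the called ones were Lrg1, C3 and Fga (log2 changes 2.19, 0.82 and 0.97, limma adjusted p = 0.0147, 0.0234 and 0.0492). Among all tested genes 2.70% were called higher. C3 was lost under 6 and Fga under 10 of 21 alternatives. The number of the list called higher was 1 without any 1 wildtype library or without knockout 11, 13 without knockout 9 and 10 without knockout 10.

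Alternatives were other pseudocounts (0.1 and 5), levels (none and 5 FPKM), scalings, variance models and library weights, removal of the length trend (symmetric loess of span 0.5), genes with a 0 left out, the title number as a replicate block, and leaving out each library or knockouts 3 and 11.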

Additional observations from a re-analysis of the deposited data

Results flagged for a closer look

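Of 96 groups of 4 libraries examined, 3 had 1 library far from the other 3 by Dixon's criterion (the gap to its nearest neighbour as a share of the group's range), where chance gives about 5%. Axin2 in wildtype 1 was at 2.59 FPKM, while wildtypes 3, 10 and 12 lay between 1.69 and 1.75 FPKM. Lrp5 in wildtype 10 was at 3.48 FPKM, against 4.09 to 4.15 FPKM. C3, a complement gene of the acute phase list, was at 1131 FPKM in wildtype 3, against 1328 to 1357 FPKM.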

How the results depend on the processing

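Slc13a3 was called higher under each alternative in which it was fitted, and with 1 library left out its log2 change lay between 0.94 and 1.33. Cyp1a2 and Glul were lost without single wildtype libraries (ranges 0.45 to 0.61 and 0.37 to 0.48), and Glul also without knockouts 3 and 11 (0.38, limma adjusted p = 0.0943). Cyp2e1 was lost with no minimum level (-0.60), median-ratio scaling (-0.49), quantile normalization (-0.79), the length trend removed (-0.46) and without knockouts 3 and 11 (-0.43), each of which left 0 pericentral genes called lower, and ranged from -0.70 to -0.52 with 1 library left out. With 1 library left out the pericentral genes called higher numbered 1 to 3 and lower 0 to 1, where without wildtype 3 Slc13a3 alone was higher. Tbx3, at -0.09 and called under no alternative, was at 0.30 without knockouts 3 and 11, 0.072 without knockout 3, 0.0085 without knockout 11, and between -0.38 and 0.072 with any 1 library left out. The cause of these losses was not tested. Over all genes the numbers called higher and lower were 485 and 720 with median-ratio scaling, 470 and 652 with quantile normalization, 516 and 585 with the length trend removed, 199 and 656 without knockouts 3 and 11, and 102 to 360 and 599 to 1294 with 1 library left out. The 3 tested ratios and the Lgr5 difference kept their direction throughout, but with fewer libraries the exact test cannot pass (smallest p 0.0571 for 3 against 4, 0.133 for 2 against 4). The titles share the numbers 3 and 10 between genotypes. The correlations of deviations between libraries with the same number were -0.0079 and 0.022, and the consensus correlation of the replicate block was 0.092. The labels do not say what the number stands for, and 2 pairs cannot show whether such libraries share more than a number. With the number as a replicate block 314 genes were higher and 1289 lower, and the pericentral calls were those of the fit without it. Low levels limit Lgr5 (mean 0.749 FPKM), Wnt2 (0.358 FPKM) and Wnt9b (0.0897 FPKM).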
